A study of Homo sapiens with 6 samples.

Results

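A set of 10 genes known as transcriptional targets of p53 was followed in H1299 cells depleted of the histone demethylase RBP2. They were MDM2, CCNG1, PLK3, GADD45A, SESN1, DDB2, XPC, RRM2B, TP53I3 and ZMAT3. The genes were taken by symbol from the array annotation, which gave 25 probe sets of the 54675 on each array and 10 of 19775 named genes. H1299, an established line from a human lung carcinoma of the non-small-cell type, is known to lack p53, so these targets were measured where p53 itself cannot act on them. That status is background on the line and was not checked on these arrays.

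The 6 arrays formed 3 groups of 2, all from the same line grown in RPMI with 10% serum. The groups had been infected with lentivirus for 72 hours and carried the RBP2 shRNA KD1, the RBP2 shRNA KD2 or a scramble shRNA. The titles do not state that the 2 arrays of a group came from separate cultures. P-values therefore measure only the spread between these arrays, which may be technical.

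The protein p53 binds DNA after stress and switches on genes that halt the cell cycle, repair DNA, supply nucleotides, restrain growth signalling or remove the cell, and it switches on MDM2, the ligase that degrades it. Many of these genes also have other activators, among them the p53 relatives p63 and p73, stress kinase pathways and ATF4, and they keep a basal level in cells without p53. RBP2, now named KDM5A, removes methyl groups from lysine 4 of histone H3, a mark of active promoters.

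Levels below are log2 values as the authors deposited them after GCRMA, a method that corrects background from probe sequence and summarises probe sets. A gene was read on its brightest probe set over the 6 arrays and was tested where that mean was at least 4. All 10 genes passed this filter, PLK3 only just. Differences are log2 fold changes from limma, with moderated SE, and "adjusted p" is its Benjamini-Hochberg value over all 10526 tested genes. A gene was called at an adjusted p under 0.05.

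The target of the hairpins, KDM5A, measured 7.42 and 7.27 with KD1 and 6.66 and 6.72 with KD2, against 9.35 and 9.42 in scramble cells. Of the line's markers, KRT8, KRT18 and VIM lay between 9.80 and 15.04 on every array, while KRT19 and EPCAM stood at 2.24 and 2.30. Of 7 markers of blood, endothelial, fibroblast and red cells, 6 stayed at or below 2.33 on every array, and COL1A1 lay between 6.20 and 7.02. The 3 probe sets of TP73, the p73 gene, read 2.24 to 2.27 on every array.

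DDB2 was called lower with both hairpins, and it was the only one of the 10 genes for which this held. RRM2B and CCNG1 fell with KD2 and not with KD1. TP53I3 went in opposite directions, lower with KD1 and higher with KD2. SESN1 rose with KD2 by a small amount, MDM2 was higher with KD1 than with KD2, and XPC, PLK3, ZMAT3 and GADD45A passed in no comparison on their brightest probe sets. With the replicate number as a block, XPC again passed in none. In these bulk measurements fewer cells with a transcript and less transcript per cell cannot be told apart.

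With KD1, 0 of the 10 genes rose and 2 fell, against 3.62% of all tested genes higher and 7.90% lower, or 11.5% called. With KD2, 2 rose and 3 fell, against 16.7% higher and 14.4% lower, or 31.0% called. In the mean of both hairpins 0 rose and 1 fell, against 5.61% higher and 6.92% lower, or 12.5% called. Between the hairpins 3 genes were higher and 1 was lower in KD1 than in KD2, against 17.8% and 23.3% of all tested genes, or 41.1% called. Only 1 gene, DDB2, was called in the same direction with each hairpin, against 3.15% of all genes (9.79% with the replicate block described next, where it was again DDB2 alone). The comparisons with scramble share the same control arrays.

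The median log2 fold change of the 10 genes was 0.08 with KD1 and -0.03 with KD2, beside 0.00 and 0.08 over all tested genes. With KD1, 6 of the 10 values were above 0 and 4 below, and with KD2 it was 5 and 5. The 10 genes had no shared direction with either hairpin.

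Arrays with the same replicate number in their titles shared deviations, as described under the processing steps, and the main fit did not use this pairing. A fit with the number as a block called more genes in all 4 comparisons. In that fit 1 of the 10 was higher and 3 lower with KD1, against 12.8% higher and 16.8% lower (29.6% called). With KD2, 3 were higher and 4 lower, against 28.4% and 22.2% (50.6% called). The 4 include PLK3, whose KD2 mean was under the minimum of 4, and no call is drawn from it. For the mean of both hairpins it was 1 higher and 3 lower, against 17.4% and 17.5% (34.9% called). Between KD1 and KD2, 3 were higher and 3 lower, against 25.1% and 32.6% (57.7% called). The blocked values that changed a call are given with each gene except PLK3.

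**Figure D1:**
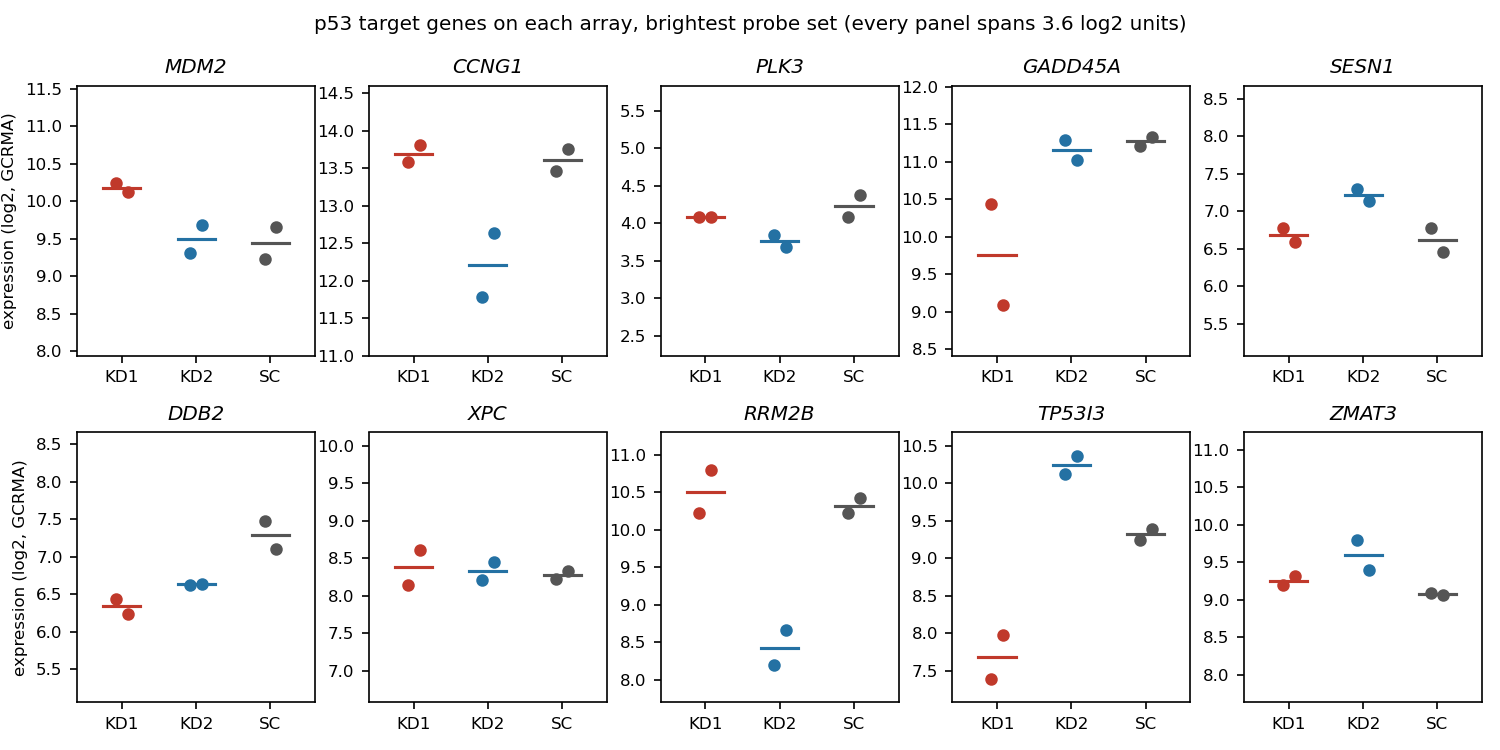
Level of each p53 target gene on every array (log2, GCRMA, brightest probe set), with KD1, KD2 and scramble from left to right. Points are arrays, bars are means of 2 arrays, and every panel spans the same number of log2 units. DDB2 lies below scramble with both hairpins, RRM2B and CCNG1 drop with KD2 alone, and TP53I3 lies on opposite sides of scramble.

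MDM2 encodes the ubiquitin ligase that binds p53 and marks it for degradation. Its brightest probe set read 10.25 and 10.12 with KD1 and 9.31 and 9.68 with KD2, against 9.23 and 9.66 in scramble cells. Both KD1 arrays were above all 4 others, and KD2 and scramble overlapped. The difference from scramble was 0.74 ± 0.21 with KD1 (SE, limma adjusted p = 0.0851, and 0.0338 with the replicate block) and 0.05 ± 0.21 with KD2 (adjusted p = 0.872). KD1 exceeded KD2 by 0.69 ± 0.21, or 1.62-fold (limma adjusted p = 0.0484).

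The next brightest MDM2 probe set gave the same picture, with 8.21 and 8.08 in KD1 cells and 6.96 and 7.55 in KD2 cells, against 7.09 and 7.51 in scramble cells. Its excess of KD1 over KD2 was 0.89 ± 0.25 (limma adjusted p = 0.0448 over all probe sets, a fit in which the brightest probe set had 0.0529 and was not called). A dimmer one held the same value, 4.73, on 5 of 6 arrays and showed no difference between the hairpins. The other 7 probe sets of MDM2 had means under 4 and were not tested. The excess of KD1 over KD2 did not pass without any 1 of the 4 knockdown arrays (adjusted p from 0.0807 to 0.213), nor with the mean of all MDM2 probe sets (0.448).

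CCNG1 encodes cyclin G1, which recruits a phosphatase to MDM2. It was read at 13.58 and 13.81 with KD1 and 11.79 and 12.64 with KD2, against 13.46 and 13.76 in scramble cells. The 2 KD2 arrays were the lowest of the 6 and stood apart from each other, while KD1 and scramble overlapped. CCNG1 fell by 1.39 ± 0.31 with KD2, or 2.63-fold (limma adjusted p = 0.0268). With KD1 the difference was 0.08 ± 0.31 (95% interval from -0.71 to 0.87).

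The gap between the hairpins at CCNG1, 1.48 ± 0.31, passed as well (limma adjusted p = 0.0176). In the mean of both hairpins CCNG1 had -0.66 (adjusted p = 0.165, and 0.0356 with the replicate block). The fall with KD2 kept its call only without KD2 replicate 2 (adjusted p from 0.0553 to 0.122 without any other array). The gap was not called without KD1 replicate 1, KD1 replicate 2 or KD2 replicate 1 (0.0515 to 0.0824).

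PLK3, a stress-responsive polo-like kinase, was close to the detection floor. It read 4.08 and 4.08 with KD1 and 3.84 and 3.68 with KD2, against 4.08 and 4.38 in scramble cells, and the value 4.08 recurred on 3 arrays. Both KD2 arrays were below the rest. The mean was 3.76 with KD2, under the minimum of 4, against 4.23 in scramble cells, so PLK3 entered the test through its KD1 and scramble arrays and no call was drawn from its difference with KD2 (-0.47). With KD1 the difference was -0.15 ± 0.15 (limma adjusted p = 0.551). Its 2 other probe sets did not exceed 2.92 on any array and were not tested.

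GADD45A, a growth-arrest protein that binds PCNA and activates stress kinases, varied most between replicates. It measured 10.43 and 9.09 with KD1 and 11.29 and 11.02 with KD2, against 11.21 and 11.33 in scramble cells. Both KD1 arrays were below the other 4, but by unequal amounts. The difference with KD1 was -1.51 ± 0.44 (limma adjusted p = 0.0954, and 0.0409 with the block), and that between KD1 and KD2 was -1.39 ± 0.44 (adjusted p = 0.0567, and 0.0277 with the block). Without KD1 replicate 1 the value for KD1 was -2.17 (adjusted p = 0.0498), and without KD1 replicate 2 it was -0.84.

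SESN1 encodes a sestrin, which restrains the growth kinase complex mTORC1 when amino acids are short. It read 6.78 and 6.59 with KD1 and 7.29 and 7.13 with KD2, against 6.78 and 6.45 in scramble cells. Both KD2 arrays were above all others. SESN1 rose by 0.59 ± 0.16 with KD2, or 1.5-fold (limma adjusted p = 0.0487), and had 0.07 ± 0.16 with KD1 (adjusted p = 0.833). The call with KD2 was lost whichever of the 6 arrays was left out (0.0700 to 0.207) and with an intensity trend in the variance model (0.0559).

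The difference of SESN1 between KD1 and KD2 was -0.52 ± 0.16 (limma adjusted p = 0.0552, and 0.00900 with the block). In the mean of both hairpins it was 0.33 (adjusted p = 0.182, and 0.0385 with the block). The related SESN2, a sestrin that ATF4 also induces, behaved otherwise. It measured 5.52 and 5.63 with KD1 and 5.52 and 5.65 with KD2, against 7.69 and 7.78 in scramble cells, so it fell with each hairpin (-2.16 and -2.15, limma adjusted p = 0.00475 and 0.00237). One array of each hairpin shared the value 5.52.

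DDB2 recognises ultraviolet lesions in chromatin as part of a ubiquitin ligase with DDB1. Its single probe set read 6.44 and 6.23 with KD1 and 6.62 and 6.64 with KD2, against 7.48 and 7.10 in scramble cells. All 4 knockdown arrays lay below both scramble arrays. DDB2 fell by 0.96 ± 0.17 with KD1, or 1.94-fold (limma adjusted p = 0.0306), and by 0.66 ± 0.17 with KD2, or 1.58-fold (adjusted p = 0.0382). KD1 minus KD2 was -0.30 ± 0.17 (95% interval from -0.72 to 0.13, adjusted p = 0.209).

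In the mean of both hairpins DDB2 fell by 0.81 ± 0.14 (limma adjusted p = 0.0325). That call and the one with KD1 were lost whichever array was left out (0.0612 to 0.149 and 0.0882 to 0.127), and the one with KD2 held only without scramble replicate 2 (0.0484, and 0.0588 to 0.164 otherwise). The values stayed below 0 throughout, from -1.0 to -0.62 in the mean. Of all tested genes, STX3, TSEN15 and GABPB1-AS1 had the 6-array profiles nearest to that of DDB2, at distances of 0.21, 0.21 and 0.24 log2 units after each profile was centred on its own mean.

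XPC, which detects distorted DNA at the start of nucleotide excision repair, showed no difference that passed. It read 8.14 and 8.61 with KD1 and 8.21 and 8.45 with KD2, against 8.22 and 8.33 in scramble cells, and the 3 groups overlapped. The 95% intervals ran from -0.39 to 0.60 with KD1 and from -0.44 to 0.55 with KD2, and changes of XPC within them cannot be told from none with these arrays.

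Of the 18 tested partners of DDB2, XPC and RRM2B in excision repair and ribonucleotide reduction, 1 was called lower and 0 higher in the mean of both hairpins (3 and 1 with the block), with a median of -0.02. With KD1 it was 0 higher and 1 lower (1 and 1 with the block), and with KD2 1 higher and 2 lower (1 and 5 with the block). Over all tested genes 12.5%, 11.5% and 31.0% were called in these comparisons (34.9%, 29.6% and 50.6% with the block). The one called in the mean was RPA1, the large subunit of the single-strand binding complex. It read 12.43 and 12.27 with KD1 and 10.08 and 10.28 with KD2, against 12.01 and 11.75 in scramble cells, so its low values were those of KD2 alone (-1.70 ± 0.15, limma adjusted p = 0.00385). DDB1, the partner of DDB2, had 0.34 with KD1 and 0.15 with KD2, and neither passed (adjusted p = 0.133 and 0.386).

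RRM2B encodes the p53-inducible small subunit of ribonucleotide reductase, which supplies deoxynucleotides outside S phase. It measured 10.22 and 10.80 with KD1 and 8.20 and 8.66 with KD2, against 10.22 and 10.42 in scramble cells. The KD2 arrays stood well below the other 4, and KD1 overlapped with scramble. RRM2B fell by 1.89 ± 0.26 with KD2, or 3.71-fold (limma adjusted p = 0.00859), the largest fall with KD2 among the 10 genes. With KD1 the difference was 0.19 ± 0.26 (95% interval from -0.47 to 0.85).

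KD1 exceeded KD2 at RRM2B by 2.09 ± 0.26, or 4.24-fold (limma adjusted p = 0.00419), and this call held without each array in turn (0.0155 to 0.0389). The fall with KD2 missed the threshold without KD2 replicate 1, scramble replicate 1 or scramble replicate 2 (0.0684, 0.0521 and 0.0521). For the mean of both hairpins RRM2B had -0.85 (adjusted p = 0.0696, and 0.00938 with the block). The other reductase genes, which were looked up after the values of RRM2B were known, also had their lowest values on the KD2 arrays. The S-phase small subunit RRM2 had -3.56 ± 0.56 with KD2 (limma adjusted p = 0.0115) and -0.17 with KD1. The large subunit RRM1 had -1.26 ± 0.38 with KD2, which did not pass (adjusted p = 0.0601, and 0.0105 with the block).

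TP53I3 encodes a quinone oxidoreductase that p53 induces and that is linked to oxidative stress. It read 7.39 and 7.97 with KD1 and 10.12 and 10.36 with KD2, against 9.24 and 9.39 in scramble cells. No 2 groups overlapped, with KD1 the lowest and KD2 the highest. TP53I3 fell by 1.63 ± 0.22 with KD1, or 3.10-fold (limma adjusted p = 0.0189), and rose by 0.93 ± 0.22 with KD2, or 1.90-fold (adjusted p = 0.0344).

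KD1 was below KD2 at TP53I3 by 2.56 ± 0.22 on the log2 scale, the widest gap among the 10 genes (difference -2.56, limma adjusted p = 0.00188). This call held without each array in turn (0.00981 to 0.0243). The fall with KD1 kept its call only without KD1 replicate 2 (0.0622 to 0.117 without any other array). The rise with KD2 was not called without KD2 replicate 1, KD2 replicate 2, scramble replicate 1 or scramble replicate 2 (0.106 to 0.164).

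**Figure D2:**
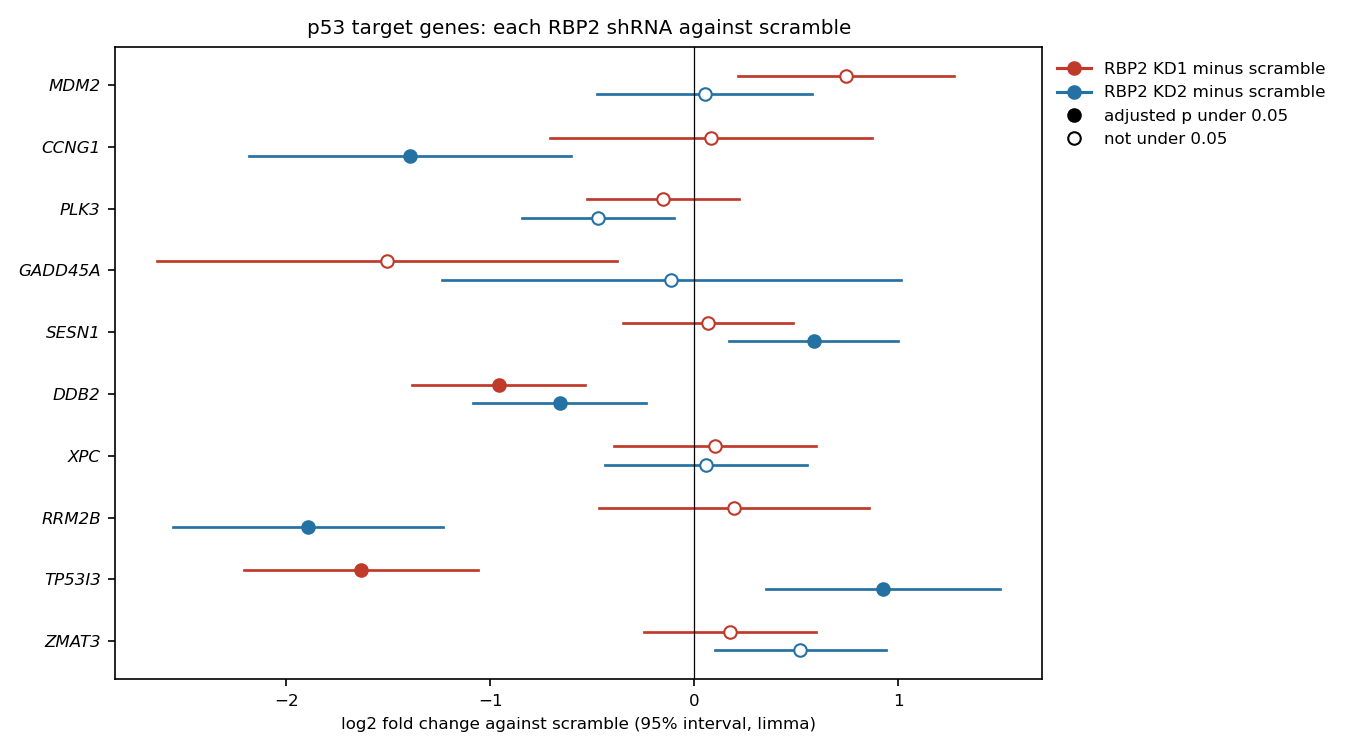
Log2 fold change of each p53 target gene against scramble for KD1 (red) and KD2 (blue), with 95% intervals from limma. Filled points passed at an adjusted p under 0.05, which was 2 genes with KD1 and 5 with KD2, and DDB2 alone is filled and on the same side for both.

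ZMAT3 encodes a zinc finger protein that binds RNA and regulates splicing and stability. Its brightest probe set read 9.19 and 9.32 with KD1 and 9.80 and 9.40 with KD2, against 9.09 and 9.06 in scramble cells. The knockdown arrays were all above scramble, by amounts that did not pass (0.18 ± 0.16 with KD1, limma adjusted p = 0.539, and 0.52 ± 0.16 with KD2, adjusted p = 0.0679, or 0.0438 with the block).

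The other ZMAT3 probe sets disagreed with each other about KD2. Probe set 227221_at read 7.33 and 7.42 with KD1 and 8.58 and 8.44 with KD2, against 7.10 and 7.19 in scramble cells. Probe set 225725_at read 8.21 and 8.39 with KD1 and 6.48 and 6.27 with KD2, against 7.82 and 8.24 in scramble cells. In a fit over all probe sets, KD2 thus stood 1.37 ± 0.11 above scramble on the first (limma adjusted p = 0.00453) and at -1.65 ± 0.19 on the second (adjusted p = 0.00688). The remaining one, 219628_at, had 0.35 ± 0.15 with KD2, which did not pass (adjusted p = 0.144). Between KD1 and KD2 the difference was -1.14 on 227221_at and 1.92 on 225725_at, and both passed (limma adjusted p = 0.0031 and 0.00291). In the mean of both hairpins these probe sets had 0.80 and -0.69, and only the first passed (adjusted p = 0.0207 and 0.0613). The direction of ZMAT3 with KD2, and between the hairpins, was therefore not settled by these arrays, whereas none of the 4 probe sets passed with KD1.

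**Figure D3:**
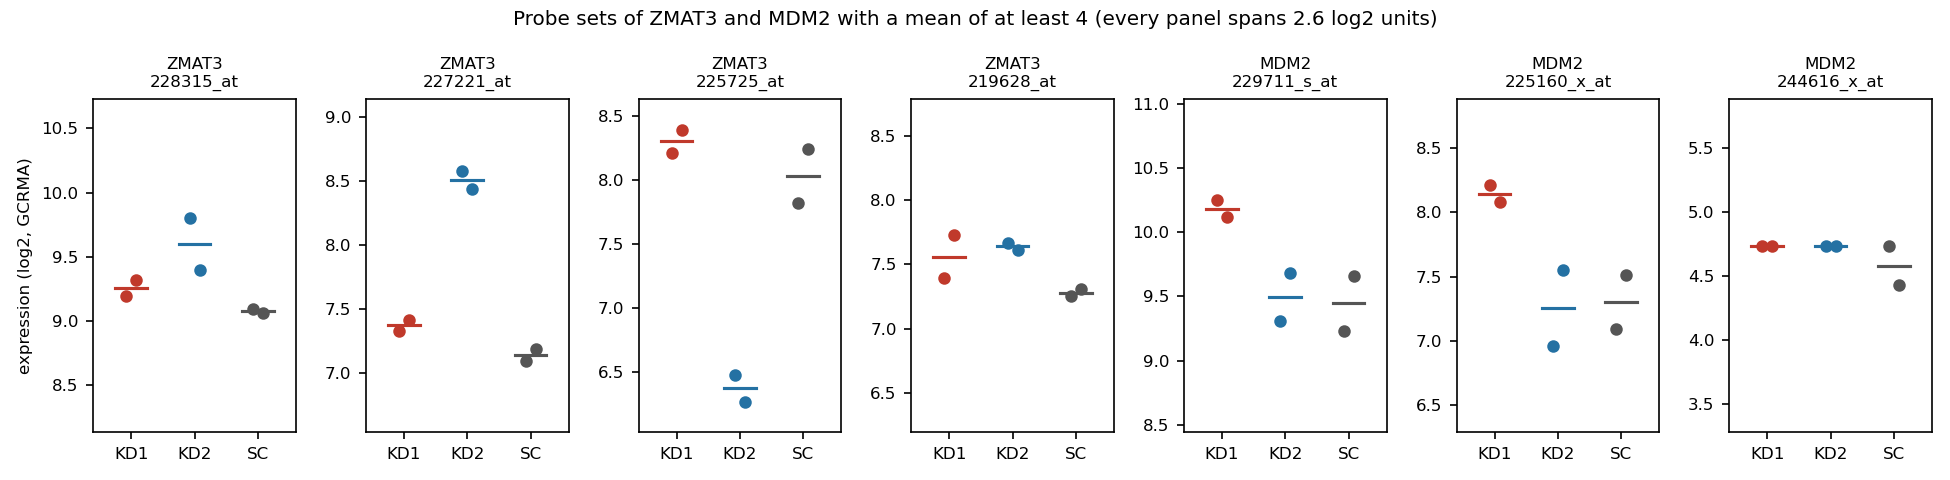
Level on every array (log2, GCRMA) for the probe sets of ZMAT3 and MDM2 with a mean of at least 4, with KD1, KD2 and scramble from left to right, points for arrays and bars for means of 2 arrays. The KD2 arrays of ZMAT3 lie above scramble on 227221_at and below it on 225725_at, and the 2 brighter MDM2 probe sets share one pattern.

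The arrays of a comparison often did not overlap, and this was common on the whole array too. Between KD1 and scramble, 5 of the 10 genes did not overlap (2 higher, 3 lower), against 53.9% of all tested genes. Between KD2 and scramble it was 7 (3 higher, 4 lower, with the dim PLK3 among the lower), against 69.8%. Between KD1 and KD2 it was 9, all but XPC, against 72.8%.

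The upstream sequences of genes called in a comparison are shown for DDB2, the gene called with both hairpins, and for CCNG1 and TP53I3, which the hairpins separated. They are the 250 bases before the first annotated start, from RefSeq (GRCh38.p14), 5′ to 3′ in the direction of the gene, at chr11:47214204-47214453 on the plus strand, chr5:163437321-163437570 on the plus strand and chr2:24084835-24085084 on the minus strand. Capitals mark CCGCCC, searched on both strands, a motif known for the DNA-binding domain of RBP2 that is also the complement of the GC box GGGCGG.
DDB2: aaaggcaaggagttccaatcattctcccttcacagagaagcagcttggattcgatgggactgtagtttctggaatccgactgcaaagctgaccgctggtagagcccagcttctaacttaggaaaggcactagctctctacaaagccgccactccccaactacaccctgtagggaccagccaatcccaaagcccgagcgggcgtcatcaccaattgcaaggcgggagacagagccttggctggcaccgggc
CCNG1: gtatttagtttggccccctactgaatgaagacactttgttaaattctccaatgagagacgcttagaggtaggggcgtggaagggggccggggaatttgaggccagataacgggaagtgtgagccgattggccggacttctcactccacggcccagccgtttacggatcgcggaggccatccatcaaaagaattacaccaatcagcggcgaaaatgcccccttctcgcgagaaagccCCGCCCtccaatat
TP53I3: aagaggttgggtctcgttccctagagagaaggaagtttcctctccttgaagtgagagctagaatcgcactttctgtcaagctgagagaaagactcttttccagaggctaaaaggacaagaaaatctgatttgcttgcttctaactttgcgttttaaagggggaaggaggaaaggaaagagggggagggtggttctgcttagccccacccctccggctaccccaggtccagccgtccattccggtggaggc
CCNG1 had 1 match, beginning 14 bases before the start, and the stretches of DDB2 and TP53I3 had 0. A second annotated start of DDB2 had 3 matches in its 250 bases. Of 16 windows of this length for 8 of the 10 genes, called or not, 12 held CCGCCC, against 42.6% of all 35116 windows. RRM2B and GADD45A were not among the 8. These windows are not independent, since 3 pairs from the same gene overlap and some share one match. By gene, 7 of the 8 had a match in at least 1 window, a count for which no share over all genes was computed. A match is a description of the sequence and not evidence of binding.

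The consensus of a p53 half-site, which reads the same on both strands, was found in 1 of the 16 windows, against 5.57% of all windows. It lay before the third annotated start of SESN1. The surrounding 30 bases, at chr6:109009013-109009042 on the minus strand of GRCh38.p14, are given with the half-site in capitals.
SESN1: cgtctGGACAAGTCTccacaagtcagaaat
The half-site began 49 bases before that start. Its absence from the other windows says only that these letters were not in the stretch searched, and many known p53 elements lie in introns.

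Beyond the 10 genes, 39 further p53 targets were listed, of which 34 were in the annotation used and 28 were tested. With KD1, 1 was higher and 3 lower (3 and 5 with the block), against 3.62% and 7.90% of all tested genes (12.8% and 16.8%). With KD2, 2 were higher and 9 lower (5 and 14 with the block), against 16.7% and 14.4% (28.4% and 22.2%). The mean of both hairpins gave 0 higher and 7 lower (3 and 9 with the block), against 5.61% and 6.92% (17.4% and 17.5%). Between the hairpins 9 were higher and 2 lower in KD1 (10 and 7 with the block), against 17.8% and 23.3% (25.1% and 32.6%). With the block, the genes higher with KD2 and those lower in KD1 than in KD2 include KITLG. It averaged 3.82 with KD1 and 3.82 in scramble cells and entered the test through KD2, so no call is drawn from it. Their median log2 fold change was 0.08 with KD1, -0.52 with KD2 and -0.19 in the mean, beside 0.00, 0.08 and 0.02 over all tested genes.

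Of the 28 targets, 1 was called in the same direction with each hairpin, SESN2, or 3.57% against 3.15% of all tested genes, a share near the background. With the replicate block it was 6, or 21.4% against 9.79%. In that fit CDKN1A, PERP, PMAIP1, SESN2 and TP53INP1 were lower with each hairpin and TIGAR, a phosphatase that restrains glycolysis, was higher. PERP, a membrane protein of cell junctions and apoptosis, read 11.14 and 11.34 with KD1 and 10.87 and 11.34 with KD2, against 11.67 and 12.02 in scramble cells. It had -0.60 with KD1 and -0.74 with KD2 (limma adjusted p = 0.145 and 0.0568, and 0.0199 and 0.00619 with the block). TIGAR had 0.43 and 0.78 (adjusted p = 0.299 and 0.0590, and 0.0291 and 0.00363 with the block). PERP and TIGAR were picked after their values were seen.

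Of the 8 tested arrest and checkpoint targets, 2 fell and 0 rose in the mean of both hairpins (2 and 1 with the block). Over all tested genes it was 6.92% lower and 5.61% higher (17.5% and 17.4% with the block). Each of the 2 that fell without the block was called with 1 hairpin and not with the other. CDKN1A, the inhibitor p21, read 6.40 and 6.02 with KD1 and 7.63 and 7.55 with KD2, against 8.36 and 7.84 in scramble cells. It fell by 1.89 ± 0.22 with KD1 (limma adjusted p = 0.0146) and had -0.51 with KD2 (adjusted p = 0.146, and 0.0324 with the block). RPS27L, a ribosomal protein paralogue that p53 induces, read 12.62 and 12.79 with KD1 and 10.31 and 10.83 with KD2, against 12.51 and 12.41 in scramble cells. It fell by 1.89 ± 0.20 with KD2 (limma adjusted p = 0.00500).

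PLK2, a further polo-like kinase of the arrest list, had 9.61 and 8.44 with KD1 and 10.62 and 9.94 with KD2, against 8.70 and 8.59 in scramble cells. Only KD2 lay clear of scramble, and PLK2 rose with it by 1.64 ± 0.44 (limma adjusted p = 0.0444). GDF15, a secreted stress cytokine, had -2.13 ± 0.72 with KD1 and -1.44 ± 0.72 with KD2. Neither passed (adjusted p = 0.127 and 0.190), and its 2 scramble arrays were far apart, at 4.84 and 7.10. Its mean with KD1 was 3.84, under the minimum of 4.

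Of the 12 tested apoptosis targets, 4 fell in the mean and 0 rose (6 and 0 with the block), against 6.92% lower and 5.61% higher over all tested genes (17.5% and 17.4%). Of the 4, 3 were called with KD2, where 31.0% of all genes were, and not with KD1. APAF1, the scaffold of the apoptosome, read 9.31 and 9.37 with KD1 and 7.89 and 8.05 with KD2, against 9.62 and 9.47 in scramble cells (-1.58 ± 0.12 with KD2, limma adjusted p = 0.00325). The death receptor TNFRSF10B and the decoy receptor TNFRSF10D fell by 1.34 ± 0.13 and 1.08 ± 0.11 with KD2 (adjusted p = 0.00464 and 0.00460). With KD1 these 3 genes had -0.20, 0.20 and -0.24, and none passed.

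PMAIP1, the BH3-only protein NOXA, read 9.53 and 8.67 with KD1 and 10.04 and 9.75 with KD2, against 11.07 and 10.63 in scramble cells. All 4 knockdown arrays were below scramble, and the fall passed with KD1 (-1.75 ± 0.33, limma adjusted p = 0.0361) but with KD2 only in the block (-0.95 ± 0.33, adjusted p = 0.0847, and 0.00953 with the block). TP53INP1, a stress protein of autophagy, had -1.44 ± 0.38 with KD1 and -1.24 ± 0.38 with KD2. It passed with neither (adjusted p = 0.0741 and 0.0614) unless the replicate number was a block (0.00701 and 0.00404).

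**Figure D4:**
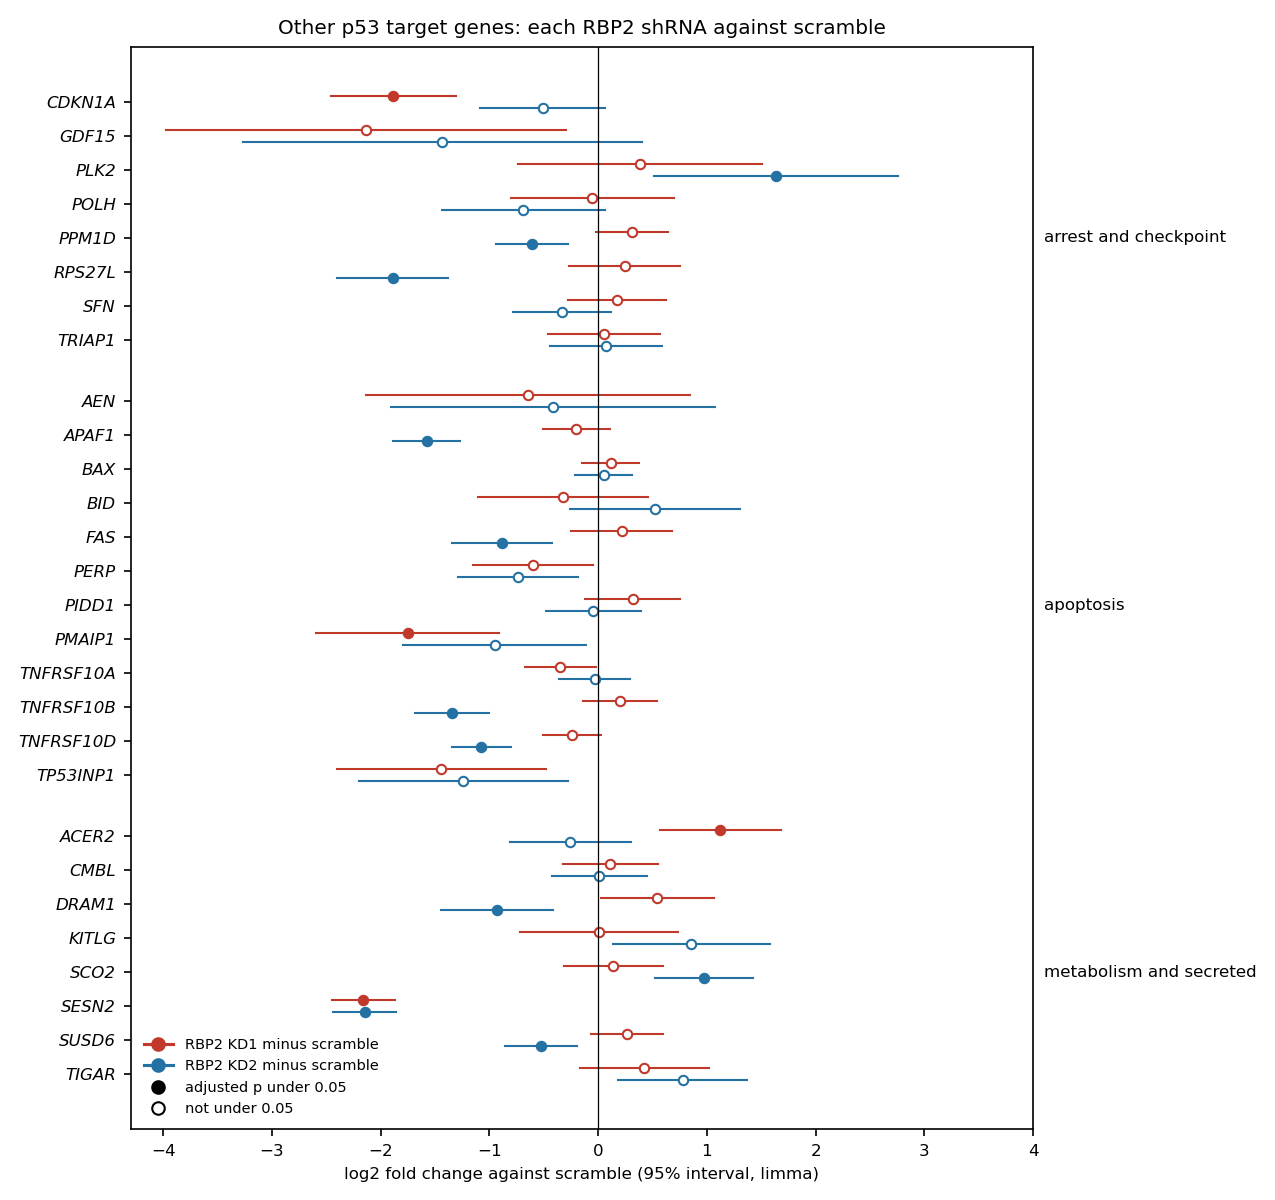
Log2 fold change against scramble for the 28 tested p53 targets outside the 10 genes, with KD1 in red and KD2 in blue and 95% intervals from limma. Filled points passed at an adjusted p under 0.05. SESN2 is filled on the low side for both hairpins, and most other filled points belong to KD2.

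Among 14 tested relatives and regulators of p53, 0 rose and 2 fell in the mean of both hairpins (0 and 3 with the block). With KD1 it was 0 and 3 (3 and 3 with the block), and with KD2 2 and 2 (2 and 5 with the block). The shares of all tested genes called were 12.5%, 11.5% and 31.0% (34.9%, 29.6% and 50.6% with the block). COP1, a ubiquitin ligase for p53, read 6.49 and 6.59 with KD1 and 8.09 and 8.22 with KD2, against 7.88 and 7.94 in scramble cells, and it fell with KD1 alone (-1.37 ± 0.11, limma adjusted p = 0.00765). USP7, a deubiquitinase of MDM2 and p53, read 9.78 and 9.52 with KD1 and 8.52 and 8.66 with KD2, against 9.64 and 9.66 in scramble cells, and it fell with KD2 alone (-1.06 ± 0.13, adjusted p = 0.00696). The differences between the hairpins passed for both genes (-1.62 for COP1 and 1.06 for USP7, adjusted p = 0.00132 and 0.00428).

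Of the 9 tested paralogues of the 10 genes, 1 was lower and 0 higher in the mean of both hairpins, and it was SESN2 (4 lower and 1 higher with the block). With KD1 1 was higher and 1 lower, and with KD2 1 was higher and 4 lower, with the same counts in the block. Of all tested genes 12.5%, 11.5% and 31.0% were called in the mean, with KD1 and with KD2 (34.9%, 29.6% and 50.6% with the block). The relative of MDM2 that binds p53 without degrading it, MDM4, had -0.37 with KD1 and -0.18 with KD2, and neither passed (limma adjusted p = 0.212 and 0.436).

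Besides single arrays, settings of the fit ended calls among the 10 genes. With no filter on dim probe sets, limma calls against scramble were 0 with each hairpin (adjusted p for DDB2 0.118 and 0.133, TP53I3 0.0993 and 0.149, RRM2B with KD2 0.0612). In that fit 3 of the 10 genes with KD1 and 7 with KD2 had an unadjusted limma p under 0.05, beside 3026 and 4610 of all 19775 genes. With only the groups compared in the fit, the calls with KD1 were lost (DDB2 0.0939, TP53I3 0.0726), while RRM2B and TP53I3 kept theirs with KD2.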

How the data were processed

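Expression was measured on 6 arrays of 54675 probe sets. The authors deposited log2 values made with GCRMA, per the submitters' processing notes, with no version stated there. The log2 scale was read from their range, and 37.7% to 38.7% of an array's values stood at the lowest one, 2.24. Probe sets with 1 gene symbol (41091) were used, those with several (1801) or none (11721) were not, and 41037 matched RefSeq by gene identifier. No pair of arrays was identical (0 pairs).

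One linear model over 6 arrays was fitted with limma 3.58.1 in R 4.3.3 (3 residual degrees of freedom), tested on simulated data beforehand, for KD1, KD2 and their mean against scramble and for KD1 against KD2. All tests are two-sided, and the number of arrays limits precision (median SE 0.17 for a single hairpin). Deviations of same-numbered arrays correlated across genes at 0.75, 0.51 and 0.53. The numbers from the titles were used as pairs only in an alternative fit, the replicate block. The main fit was by group only, so its SE, intervals and calls do not use this pairing. The alternatives were the replicate block, other filters, probe set choices, centring, variance trend, two-group fits and each array left out.

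The members, the gene lists and the tests were chosen with earlier results of these data known. Named genes were the 10 members, KDM5A, TP73, up to 4 called genes of each list by adjusted p in the mean comparison (the 2 largest changes where none was called), the 5 largest changes of other targets with each hairpin, and the nearest profiles of a member called in the mean. RRM1, RRM2, DDB1 and MDM4, partners or relatives of members, are named outside that rule. So are PERP, TIGAR, HIPK2, KAT5, GADD45B, SESN3 and PLK4.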

Additional observations from a re-analysis of the deposited data

Results flagged for a closer look

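The effect of KD1 differed from that of KD2 at 4 of the 10 genes, tested directly as KD1 minus KD2 in limma, where 41.1% of all tested genes passed. The difference was -2.56 for TP53I3, 2.09 for RRM2B, 1.48 for CCNG1 and 0.69 for MDM2. The gaps of TP53I3 and RRM2B passed without each array in turn, those of CCNG1 and MDM2 did not. For TP53I3, CCNG1 and MDM2 the gap rests on probe sets that can cross-hybridise. KDM5A itself was higher in KD1 than in KD2 cells by 0.65 ± 0.11 on its brightest probe set (SE, limma adjusted p = 0.0101). On its other tested probe sets the difference was 0.30, 0.38 and 0.40. None of these passed in the limma fit over all probe sets (adjusted p = 0.164, 0.229 and 0.103), where the brightest had 0.0121. The part of a KDM5A difference in these gaps was not tested.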

How the results depend on the processing

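The replicate block raised the genes called to 3670 in the mean of both hairpins, 3117 with KD1 and 5324 with KD2, against 1318, 1213 and 3264 without it, and the members called to 4 in the mean and 4 with KD1. Without a filter on dim probe sets 332, 311, 1470 and 2477 genes were called (mean, KD1, KD2 and KD1 against KD2), and 0, 0, 0 and 2 members. In the same order 2, 3, 7 and 5 members had an unadjusted limma p under 0.05, beside 3445, 3026, 4610 and 5291 of all 19775 genes. Leaving out probe sets that can cross-hybridise left a tested probe set for 6 of the 10 genes. Of these, DDB2 and RRM2B, the called ones among them, kept their calls. MDM2, CCNG1, SESN1 and TP53I3 had no value in that fit. Their calls, with the opposite directions of TP53I3, rest on probe sets that can cross-hybridise. With only the groups compared in the fit, 191 genes and 0 members were called with KD1, while RRM2B and TP53I3 kept their calls with KD2. Leaving out single arrays gave 0 to 457 genes and 0 to 1 members in the mean, 0 to 191 and 0 to 1 with KD1, 624 to 2928 and 0 to 2 with KD2, and 1874 to 3718 and 2 to 4 between the hairpins. Fewer arrays leave fewer degrees of freedom in each of these fits.

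Of 240 member values with an array left out, 176 kept direction and call, 47 lost the call, 3 gained it and 14 turned sign. Of 306 under the other settings it was 267, 18, 16 and 5. Of the 19 values that turned sign, 0 were called in the full fit and 2 were called under the alternative, both on ZMAT3 probe set 225725_at. With single arrays left out, the values that crossed 0 ran from -0.07 to 0.23 for CCNG1, -0.10 to 0.23 for SESN1, -0.13 to 0.33 for XPC, -0.30 to 0.00 for PLK3 and -0.10 to 0.48 for RRM2B with KD1. With KD2 they ran from -0.17 to 0.27 for MDM2, -0.25 to 0.02 for GADD45A and -0.06 to 0.18 for XPC. XPC also ran from -0.04 to 0.20 in the mean and from -0.19 to 0.27 between the hairpins. MDM2 with KD2 was -0.05 on its next brightest probe set. ZMAT3 was 0.06 between the hairpins with the mean of its probe sets, and on 225725_at it was -0.69 in the mean, -1.65 with KD2 and 1.92 between the hairpins. Fits on the other probe sets were chosen after seeing the data, and the cause of the differences between probe sets was not tested. Levels near the lowest value, as for PLK3, limit what a fold change can show.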

Other observations

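Some genes around the p53 pathway, picked after their values were seen, also separated the hairpins. HIPK2, a kinase that phosphorylates p53, read 9.44 and 9.60 with KD1 and 12.42 and 12.40 with KD2, against 11.29 and 11.60 in scramble cells. It was called lower with KD1 (-1.92 ± 0.15, limma adjusted p = 0.00765) and higher with KD2 (0.97 ± 0.15, adjusted p = 0.0108), the same order of groups as TP53I3. KAT5, the acetyltransferase TIP60, had -0.67 ± 0.14 with KD1 and 0.86 ± 0.14 with KD2 (adjusted p = 0.0468 and 0.0128).

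Among the paralogues, GADD45B, SESN3 and PLK4 were also picked after their values were seen. GADD45B measured 9.93 and 8.97 with KD1 and 7.71 and 7.34 with KD2, against 9.26 and 8.99 in scramble cells. Its low values were with KD2 (-1.60 ± 0.35, limma adjusted p = 0.0254), while the lower values of GADD45A were with KD1. SESN3 was higher with KD1 by 1.06 ± 0.21 (adjusted p = 0.0400) and had -0.25 with KD2. PLK4, the kinase of centriole duplication, had -2.84 ± 0.44 with KD2 (adjusted p = 0.0115) and -0.19 with KD1.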
